A study of Mus musculus with 27 samples.

Results

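A set of 10 genes that release calcium from the endoplasmic reticulum, tether it for release or refill it were followed in the cortex of 5xFAD mice. They are the ryanodine receptors Ryr1, Ryr2 and Ryr3, the inositol trisphosphate (IP3) receptors Itpr1, Itpr2 and Itpr3, the junctophilins Jph1, Jph3 and Jph4, and the calcium pump Atp2a2, listed in the table as ryr1, ryr2, ryr3, itpr1, itpr2, itpr3, jph1, jph3, jph4 and atp2a2. The 10 members were taken by symbol from the 26264 symbols of the expression table. They were selected with one result of these libraries in view, the lower Ryr2 level of R55-treated than of vehicle-treated mice, so the R55 against vehicle values of the members are given below as a description. All 10 had fragments in every library, and 8 of them reached a mean of 1 FPKM (fragments per kilobase, relative to the library's counted fragments), the level set for the tests. Ryr1 and Itpr3 lay below it. Ryr3 lay near it, with means over mice of 1.61 FPKM after vehicle, 1.12 after R33 and 0.87 after R55. Its place among the tested genes thus leaned on the vehicle group, with which the treated groups are compared.

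Each library came from a small cortical block of a 16-week-old female 5xFAD mouse, a model of amyloid pathology with transgenes under the neuronal Thy1 promoter, collected 24 h after 500 nL had been microinjected into the cortex of one hemisphere. The injection held R55 or R33, compounds meant to stabilise the retromer complex, each at 10 mM, or vehicle without drug. There were 4 vehicle-treated mice (labelled J, L, M and AH), 5 R33-treated mice (K, N, O, AD and AE) and 5 R55-treated mice (P, Q, R, AA and AB), and the injected and the contralateral block were sequenced separately, except for mouse AE, with the injected block only, which makes 27 libraries. All groups carried the transgenes and the surgery, and no wild-type or uninjected mouse was among them. Libraries held 15932196 to 38077026 fragments on genes. Neuronal markers summed to 2016 to 3226 FPKM in every library. The blocks were not uniform, however: markers of the hippocampus (Prox1, C1ql2 and Fibcd1) summed to 3.89 to 60.6 FPKM and markers of the choroid plexus to 2.67 to 1636 FPKM.

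Neurons keep a store of calcium in the endoplasmic reticulum. Ryanodine receptors open when cytosolic calcium rises and so amplify a calcium signal, whereas IP3 receptors open when IP3, made after activation of cell surface receptors, binds together with calcium. Junctophilins hold the endoplasmic reticulum close to the plasma membrane, which brings release channels near the channels that let calcium in, and the pump encoded by Atp2a2 (SERCA2) returns calcium to the store. Release through both channel families is known for its part in synaptic plasticity, and its disturbance has been studied widely in models of Alzheimer's disease.

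Both channel families share one pore plan, and the stretch that encodes the glycine-rich selectivity filter is shown for the 6 channel genes because it places them side by side and shows how far their reads can be told apart. The sequences are from the GENCODE release on GRCm39, the build of the authors' alignment, read on the coding strand of the canonical transcript. Capitals mark the 18 bases of the filter within 60 coding bases, and each stretch lies within 1 exon.

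Ryr1: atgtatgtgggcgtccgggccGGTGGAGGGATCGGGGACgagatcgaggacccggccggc
Ryr2: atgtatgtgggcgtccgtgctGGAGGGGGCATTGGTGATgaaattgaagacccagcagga
Ryr3: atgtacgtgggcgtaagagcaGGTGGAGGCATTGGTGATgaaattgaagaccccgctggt
Itpr1: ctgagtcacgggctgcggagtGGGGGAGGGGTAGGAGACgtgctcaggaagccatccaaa
Itpr2: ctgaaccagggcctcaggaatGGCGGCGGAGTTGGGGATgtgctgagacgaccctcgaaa
Itpr3: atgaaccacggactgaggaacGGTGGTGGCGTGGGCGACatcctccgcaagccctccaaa

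The Ryr1 stretch is at chr7:28705002-28705061 (minus strand, exon 102 of 106), that of Ryr2 at chr13:11575492-11575551 (minus strand, exon 101 of 105) and that of Ryr3 at chr2:112466955-112467014 (minus strand, exon 99 of 103). Those of the IP3 receptors are at chr6:108495728-108495787 for Itpr1 (plus strand, exon 58 of 62), chr6:146060388-146060447 for Itpr2 (minus strand, exon 53 of 57) and chr17:27337584-27337643 for Itpr3 (plus strand, exon 54 of 58). Ryr2 and Ryr3 shared 50 of the 60 bases, Ryr1 and Ryr2 46 and Ryr1 and Ryr3 45, and the IP3 receptors shared 40 to 43. Even in this conserved stretch no pair was identical. Over whole transcripts the longest run of identical bases was 35 between Ryr1 and Ryr2, 30 between Ryr2 and Ryr3 and 28 to 32 between the IP3 receptors. How reads that matched more than one gene were counted is not given in the sources used here.

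The members span a wide range of gene sizes. On GRCm39, Ryr2 occupies chr13:11567988-12121870 and Ryr3 chr2:112461699-113047441, whereas Jph4 occupies only chr14:55344274-55354392. The gene length behind the FPKM was 16813 bp for Ryr2, 15441 bp for Ryr3 and 15362 bp for Ryr1, between 8990 bp (Itpr3) and 11823 bp (Itpr2) for the IP3 receptors, between 3903 bp (Jph3) and 4807 bp (Jph1) for the junctophilin members and 5725 bp for Atp2a2. The median of all tested genes was 3149 bp. Ryr2 and Ryr3 are thus among the longest transcripts of the table.

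The pump gene was the most abundant member. Averaged over the 14 mice, Atp2a2 stood at 165.0 ± 20.8 FPKM (SD, n = 14), followed by Jph4 at 108 ± 10.9, Jph3 at 102 ± 9.72 and Itpr1 at 80.8 ± 11.7. Then came a wide step to Ryr2 at 9.46 ± 1.80, Jph1 at 5.53 ± 1.39, Itpr2 at 2.54 ± 0.522 and Ryr3 at 1.17 ± 0.60, and Itpr3 (0.657 ± 0.126) and Ryr1 (0.615 ± 0.127) were lowest. Itpr1 exceeded Ryr2 in all 27 libraries, by 8.54-fold on average, and Ryr2 exceeded Jph1 in all 27. The neighbours Jph4 and Jph3 did not separate beyond their spread, with Jph4 higher in 17 of 27 libraries, nor did Itpr3 and Ryr1, with Itpr3 higher in 15 of 27. Jph3 and Itpr1 stood in the stated order in 25 of 27 libraries although their ranges overlapped.

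Within each family one or a pair of genes carried most of the signal. Ryr2, the ryanodine receptor best known from heart and also the main form in brain, made up 84.3 ± 3.19% of the summed ryanodine receptor FPKM (SD, n = 14 mice), with Ryr3, a minor form in brain, at 10.1 ± 3.66% and Ryr1, the form of skeletal muscle, at 5.56 ± 1.01%. Itpr1, the main neuronal IP3 receptor, made up 96.2 ± 0.764% of the IP3 receptor signal, with Itpr2, found largely in astrocytes, at 3.06 ± 0.645% and Itpr3 at 0.791 ± 0.163%. Jph3 and Jph4, the neuronal junctophilins, took 47.2 ± 2.89% and 50.1 ± 2.57% of the junctophilin signal. The share of Ryr2 among ryanodine receptors was 83.8 ± 4.09% in vehicle-treated, 84.4 ± 2.47% in R33-treated and 84.6 ± 3.75% in R55-treated mice, means that lay within 1 SD of each other. The heart form Jph2 was near the floor, at 0.232 ± 0.0717 FPKM with 4 to 50 fragments per library.

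**Figure D1:**
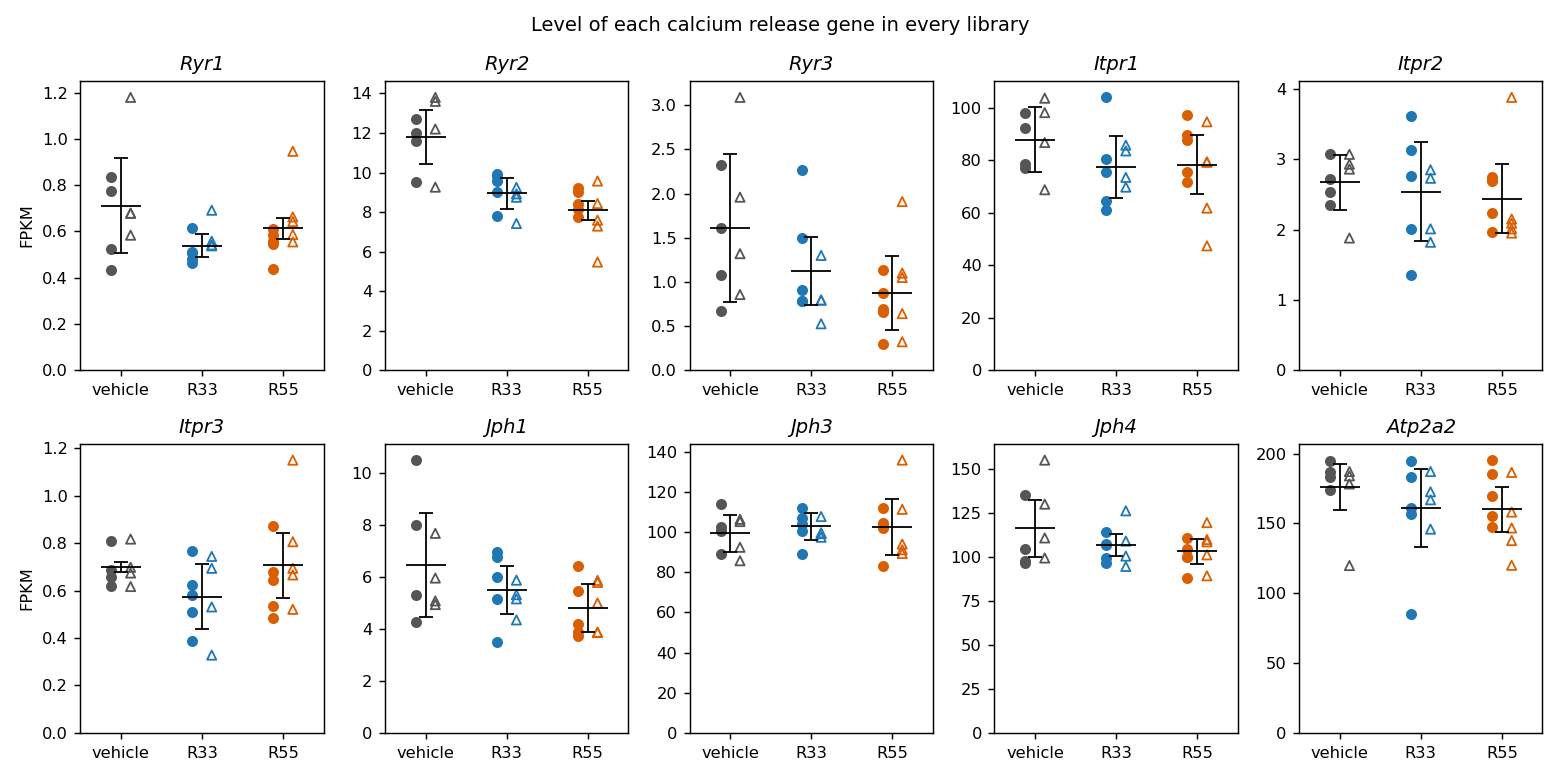
FPKM (y axis, from 0) of the 10 members in each library by treatment (x axis); filled circles are injected and open triangles contralateral blocks, and the bars give the mean ± SD over mice (n = 4, 5 and 5). Ryr2 averages 11.8 FPKM in vehicle-treated, 8.95 in R33-treated and 8.09 in R55-treated mice, while the means of Jph3 lie between 99.4 and 103 FPKM.

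Ryr2 was lower after R55 than after vehicle, which is the difference the members were selected on. The vehicle-treated mice J, AH, L and M stood at 10.4, 10.9, 12.8 and 13.2 FPKM (mean of the hemispheres), and the R55-treated mice Q, P, AB, R and AA at 7.33, 8.0, 8.15, 8.29 and 8.67. Every R55-treated mouse thus lay below every vehicle-treated mouse. Single libraries overlapped, since the contralateral block of mouse J (9.26 FPKM) and the injected block of mouse AH (9.54) lay below the highest R55 library, the contralateral block of mouse AA at 9.57. The fitted difference was -0.50 on the log2(FPKM + 1) scale (SE 0.0835, 95% interval -0.67 to -0.33). It was the only gene of 12976 called by limma at an adjusted p under 0.05 (adjusted p = 0.0322, the value behind the choice), which is 0.00771% of those tested.

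The call for Ryr2 depended on how the libraries were weighed. With the correlation between the hemispheres of a mouse modelled, the estimate was the same and the adjusted p from limma was 0.769, and with 1 value per mouse it was 0.386. Leaving out each mouse in turn kept the difference between -0.55 and -0.45, but the adjusted p ran from 0.00677 to 0.417. It stayed under 0.05 in 5 of 14 fits, those without J, AD, AH, Q or AA, and the call was lost without the vehicle-treated mouse M (0.417) or L (0.398), the R55-treated mouse P (0.166), AB (0.123) or R (0.112), or the R33-treated mouse N (0.0762), K (0.0699), O (0.0621) or AE (0.0501). Within the 9 mice with 1-letter labels the difference was -0.57 (limma adjusted p = 0.0319), and within the 5 with 2-letter labels, 1 of them a vehicle-treated mouse, it was -0.33 without a test. All these fits reuse libraries behind the choice of the members. Their p-values are therefore a description and no independent test of Ryr2.

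Ryr2 was also low after R33. The R33-treated mice AD, AE, N, K and O stood at 7.61, 8.99, 9.15, 9.38 and 9.60 FPKM, all of them below the lowest vehicle-treated mouse at 10.4. The difference from vehicle was -0.37 (SE 0.0856, 95% interval -0.54 to -0.19), and it did not pass the test across all genes (limma, unadjusted p = 0.000226, adjusted p = 0.587), in which none of the 12976 genes was called (0.0%), with 762 at an unadjusted p under 0.05. That interval counts the libraries of a mouse separately. With the correlation between the hemispheres of a mouse modelled, it was -0.58 to -0.15 (limma adjusted p = 0.997). Since the R33 and R55 comparisons use the same 4 vehicle-treated mice, they are not independent. Of all tested genes, 0.378% had every R33-treated mouse below every vehicle-treated mouse, and 1.43% had every R55-treated mouse below them. Among the 8 tested members, Ryr2 was the 1 in each comparison.

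The other ryanodine receptors varied more between mice. Ryr3 stood at 0.761, 1.20, 1.79 and 2.71 FPKM in the vehicle-treated mice AH, L, J and M, at 0.720, 0.792, 1.04, 1.5 and 1.53 in the R33-treated mice K, AD, N, AE and O, and at 0.309, 0.664, 0.856, 1.12 and 1.40 in the R55-treated mice R, AB, Q, P and AA. These ranges overlapped throughout, with 2 of 5 R55-treated and 1 of 5 R33-treated mice below every vehicle-treated mouse. The difference of Ryr3 from vehicle was -0.46 (SE 0.171) for R55 and -0.31 (SE 0.176, limma adjusted p = 0.85) for R33. Its size rested on single vehicle-treated mice, at -0.28 (R55) and -0.12 (R33) without M and -0.63 and -0.48 without AH. Ryr1 was low everywhere, with 143 to 690 fragments per library. It stood at 0.712 ± 0.204 FPKM (n = 4 mice) after vehicle, 0.539 ± 0.0493 (n = 5) after R33 and 0.614 ± 0.0455 (n = 5) after R55, and the vehicle mean was raised by mouse L at 1.01. Without the filter on low genes, the difference of Ryr1 from vehicle was -0.08 (SE 0.0557) for R55 and -0.13 (SE 0.0571, limma adjusted p = 0.903) for R33.

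The IP3 receptors overlapped between the groups. Itpr1 stood at 73.0, 82.7, 97.9 and 98.0 FPKM in the vehicle-treated mice J, M, L and AH, against 65.3 to 94.9 FPKM in R33-treated and 67.6 to 92.1 in R55-treated mice. Its difference from vehicle was -0.18 (SE 0.118) for R55 and -0.19 (SE 0.121, limma adjusted p = 0.85) for R33, which is within the spread between mice. Itpr2 was at 2.67 ± 0.388 FPKM after vehicle, 2.54 ± 0.707 after R33 and 2.44 ± 0.491 after R55, with differences of -0.10 for both compounds. Itpr3, with 81 to 292 fragments per library, was at 0.698 ± 0.0210, 0.575 ± 0.139 and 0.706 ± 0.137 FPKM in the same order. Its vehicle-treated mice lay close together, between 0.678 and 0.719, and 4 of 5 R33-treated mice lay below and 1 above them (log2 difference -0.11 without the filter, limma adjusted p = 0.903). The ratio of Itpr1 to Ryr2 was 7.48 ± 1.17 in vehicle-treated, 8.66 ± 1.13 in R33-treated and 9.70 ± 1.30 in R55-treated mice.

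Of the junctophilins, the sparse Jph1 was lower on average after both compounds, but the mice overlapped. Jph1, the form known from skeletal muscle, stood at 4.6, 5.2, 6.97 and 9.08 FPKM in the vehicle-treated mice AH, L, J and M, at 3.92 to 6.06 in R33-treated and 3.81 to 6.10 in R55-treated mice. Its difference from vehicle was -0.34 (SE 0.135) for R55 and -0.19 (SE 0.139, limma adjusted p = 0.85) for R33, and without mouse M -0.18 and -0.03. Jph4 stood at 97.8, 108, 126 and 133 FPKM in the vehicle-treated mice AH, L, J and M, against 99.9 to 114 after R33 and 94.5 to 109.6 after R55. The mice J and M held the vehicle mean of Jph4 up, and the differences were -0.16 (SE 0.0819) for R55 and -0.11 (SE 0.084, limma adjusted p = 0.85) for R33. Jph3, the partner of Jph4 in neurons, was at 99.4 ± 9.10 FPKM after vehicle, 103 ± 6.74 after R33 and 103 ± 13.8 after R55. Its differences of 0.04 for both compounds were the smallest of the tested members in size and the only ones above 0.

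The pump gene followed the same overlap. Atp2a2 stood at 153, 176, 184 and 191 FPKM in the vehicle-treated mice J, M, AH and L, at 116, 157, 167, 181 and 185 in the R33-treated mice AD, AE, O, N and K, and at 146.5 to 186 in R55-treated mice. Its difference from vehicle was -0.14 (SE 0.125) for R55 and -0.15 (SE 0.128, limma adjusted p = 0.854) for R33. The lowest library, the injected block of mouse AD, held 85.4 FPKM of Atp2a2, and without that mouse the R33 difference was -0.01.

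As a group, 7 of the 8 tested members had a lower mean after R55 and 7 of 8 after R33, with a median log2 difference of -0.17 in both comparisons beside medians of 0.03 (R55) and 0.02 (R33) over all 12976 tested genes. Of all tested genes, 39.8% were lower after R55 and 42.5% after R33. Ryr2, Ryr3, Itpr1 and Itpr2 are longer than 8000 bp, and of the other tested genes of at least that length 89.6% and 85.6% were lower. At an unadjusted p under 0.05, lower values were found for 3 members after R55 (Ryr2, Ryr3 and Jph1), beside 3.74% of all tested genes, and for 1 after R33 (Ryr2), beside 2.68%. The R55 count is the contrast the members were selected on and is read no further. Ryr3, counted among the lower members, reached the level for the tests with the help of its high vehicle group.

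**Figure D2:**
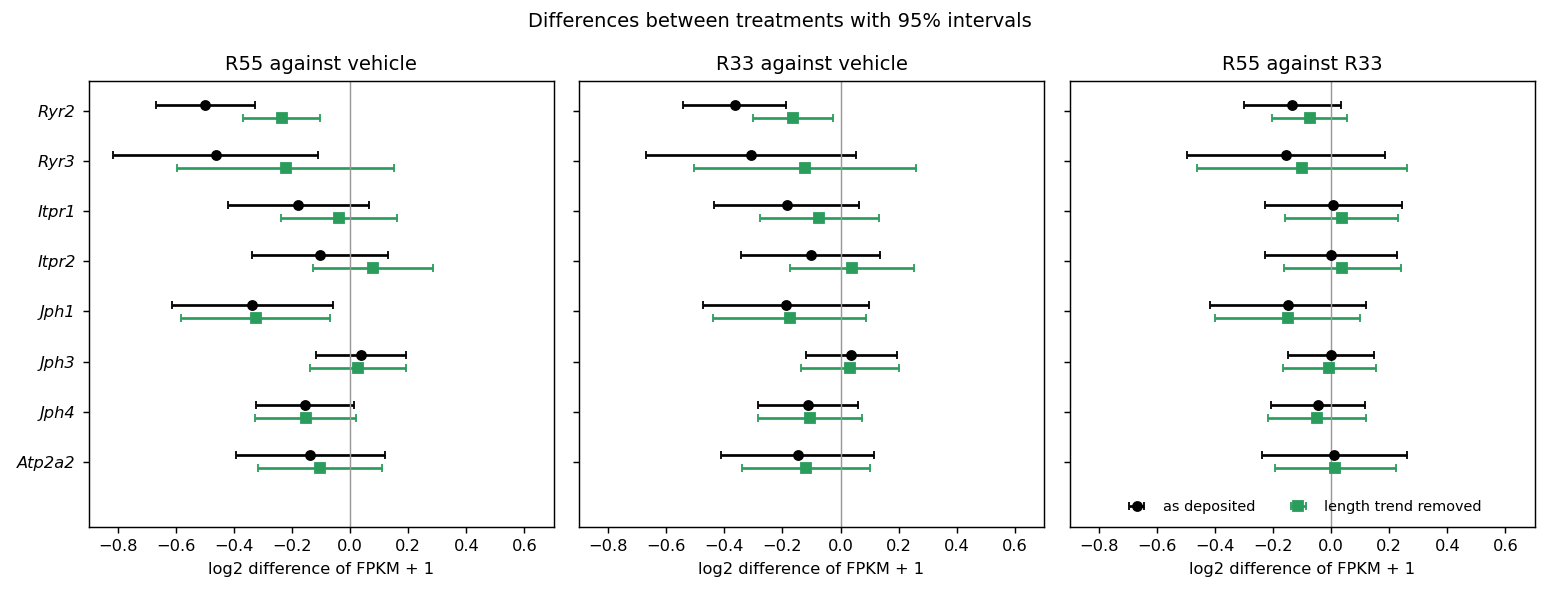
Difference on the log2(FPKM + 1) scale (x axis) of the 8 tested members (rows) in the 3 treatment comparisons, with 95% intervals; black circles are the deposited values and green squares the values after removal of a trend on gene length from each library. Ryr2 moves from -0.50 to -0.24 for R55 and from -0.37 to -0.16 for R33 once the trend is removed, and Jph1 stays in place.

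Gene length moved with treatment across the whole table. Of 10 equal classes by length, the shortest (median 868 bp) had a median log2 difference of 0.10 for R55 and 0.09 for R33, and the longest (median 8320 bp) one of -0.10 and -0.09. Of the 749 tested genes of at least 8000 bp, members left out, 89.6% were lower after R55 and 85.6% after R33. The 49 of at least 15000 bp, the size class of Ryr2 and Ryr3, had medians of -0.26 and -0.21. What sets this trend was not tested. The level of the long genes in a mouse (median log2 deviation from the mean of all libraries) was 0.09 ± 0.01 (SD, n = 4) in vehicle-treated, -0.02 ± 0.16 (n = 5) in R33-treated and -0.05 ± 0.06 (n = 5) in R55-treated mice. Mouse AD weighed heavily on the R33 mean, at -0.42 (injected) and -0.169 (contralateral), while the other R33 libraries ran from 0.012 to 0.121. The highest R33-treated mouse, at 0.066, still lay below the lowest vehicle-treated mouse, at 0.084. The R33 medians by length were not computed without AD.

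**Figure D3:**
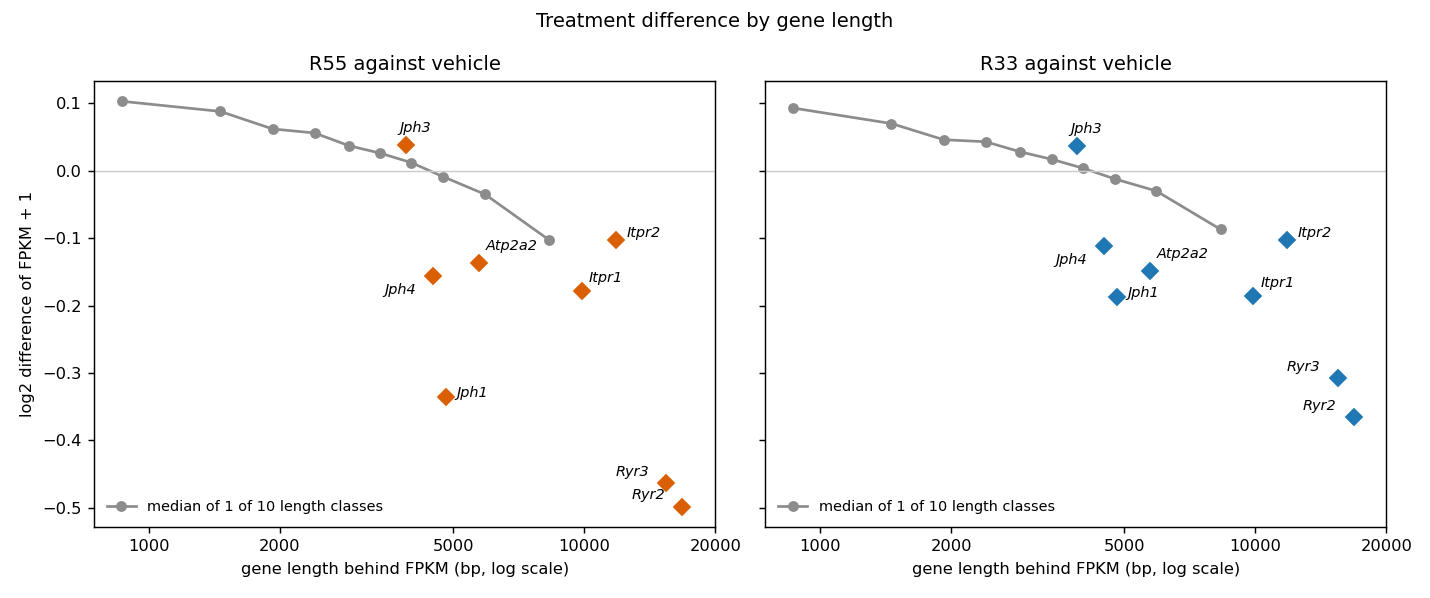
Difference from vehicle on the log2(FPKM + 1) scale (y axis) against gene length in bp (x axis, log scale), with diamonds for the tested members and grey points for the medians of 10 equal length classes of the 12976 tested genes. The medians fall from 0.10 to -0.10 for R55 as genes get longer. Ryr2, Ryr3, Itpr1, Jph1, Jph4 and Atp2a2 lie below them in both comparisons, Itpr2 lies near the last median and Jph3 above. The last class has a median length of 8320 bp, well short of Ryr2 and Ryr3. Other genes of at least 15000 bp had medians of -0.26 (R55) and -0.21 (R33).

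With a trend on length removed from each library, the long members shifted and the short ones did not. Ryr2 then differed from vehicle by -0.24 after R55 (SE 0.0649, limma adjusted p = 0.59) and by -0.16 after R33 (SE 0.0665, limma adjusted p = 0.916). Ryr3 went to -0.22 and -0.12, and Itpr2 changed sign, to 0.08 and 0.04. Jph1, at 4807 bp, remained at -0.33 for R55 and -0.18 for R33, and Jph4 at -0.15 and -0.10. No member was called in either comparison. The difference of Ryr2 between R55 and vehicle after that step was -0.24 in each hemisphere fitted alone, against -0.38 (injected) and -0.61 (contralateral) before it.

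Across the 14 mice, the level of Ryr2 rose with that of the other long genes (Pearson r = 0.736, permutation p = 0.0031, adjusted over 30 relations 0.023; Spearman rho = 0.916, permutation p = 1e-05, the smallest that 100000 permutations can give, adjusted 0.0003). Without the 2 mice farthest from the median long-gene level (AD and Q) r was 0.759, and within the 9 mice with 1-letter labels it was 0.80. Treatment differs along both measures in these mice, so the relation mixes differences between and within groups. The permutations moved mice across treatments, and the members were selected on the Ryr2 difference between groups. The p-values for Ryr2 are therefore a description and test no relation within groups. For Atp2a2 the same relation had r = 0.858 (permutation p = 0.00048, adjusted 0.012; rho = 0.662, permutation p = 0.012, adjusted 0.082), with 0.655 without AD and Q and 0.482 within the 1-letter mice. The 5 mice with 2-letter labels were too few for a value of their own.

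Hippocampal marker content moved with another pair of members. Ryr3 and Jph1 rose with the hippocampal markers Prox1, C1ql2 and Fibcd1 over the 14 mice. The permutations moved mice across treatments, so these relations also mix differences between and within groups. For Jph1, r was 0.780 (permutation p = 0.00082, adjusted over 30 relations 0.012) and rho was 0.789 (permutation p = 0.0012, adjusted 0.018). Leaving out the mice farthest from the median (AE and R) gave r = 0.787, and the 9 mice with 1-letter labels gave 0.878. For Ryr3, r was 0.749 (permutation p = 0.0016, adjusted 0.016) and rho was 0.701 (permutation p = 0.0067, adjusted 0.067), with r = 0.688 without AE and R and 0.715 within the 1-letter mice. For Ryr2 no such relation was shown (r = 0.189, permutation p = 0.52, adjusted 0.73, and rho = 0.204, permutation p = 0.48, adjusted 0.85), which does not exclude one. The summed markers ran from 3.89 to 60.6 FPKM in vehicle-treated, 4.28 to 51.4 in R33-treated and 3.96 to 43.1 in R55-treated libraries. With their level as a covariate, Ryr3 differed from vehicle by -0.35 after R55 and -0.24 after R33, Jph1 by -0.25 and -0.13, and Ryr2 by -0.50 and -0.37, as without it.

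**Figure D4:**
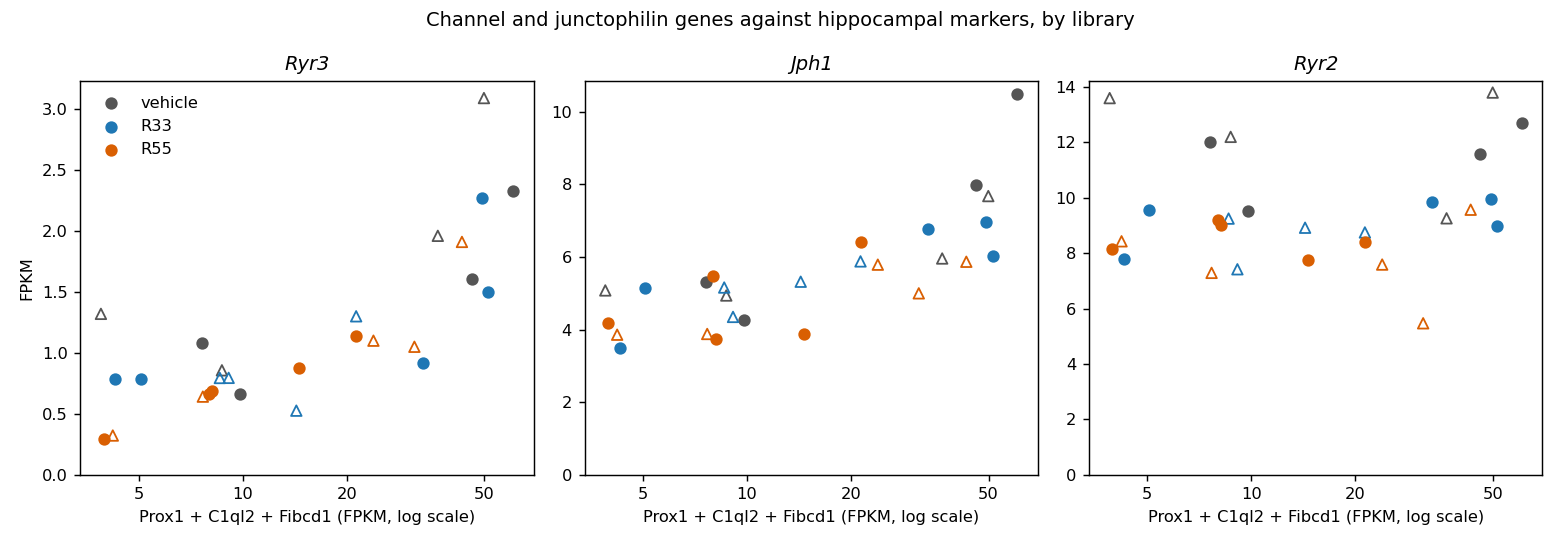
FPKM of Ryr3, Jph1 and Ryr2 (y axes, from 0) against the summed FPKM of 3 hippocampal markers (x axis, log scale) in the 27 libraries; colours give the treatment, filled circles injected and open triangles contralateral blocks. The highest Ryr3 value (3.09 FPKM) and the highest Jph1 value (10.5 FPKM) both lie in vehicle-treated libraries rich in the markers. For Ryr2 no relation with the markers was shown over mice.

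R55 and R33 were compared at the same dose and time, as 1 pair of compounds, for each of the 8 tested members. Both were injected at 10 mM and read at 24 h. No gene of 12976 was called between them (0.0%; 149 at an unadjusted p under 0.05, limma), and no member differed at an unadjusted p under 0.05. For Ryr2, R55 lay 0.13 below R33 on the log2 scale (log2 difference -0.13, 95% interval -0.30 to 0.03, limma adjusted p = 1.0), and 1 of 5 R55-treated mice lay below every R33-treated mouse. Ryr3 differed by -0.15 (-0.50 to 0.19) and Jph1 by -0.15 (-0.42 to 0.12). The remaining members were within 0.05 of 0, Itpr1 with an interval from -0.23 to 0.24, Jph3 from -0.15 to 0.15 and Atp2a2 from -0.24 to 0.26. The hemispheres fitted alone lay on opposite sides of 0, at 0.145 (injected) and -0.141 (contralateral) for Itpr1 and at 0.172 and -0.175 for Atp2a2. A p above the threshold does not show that the compounds act alike. These intervals count the libraries of a mouse separately. With the correlation between hemispheres modelled they were wider, -0.34 to 0.07 for Ryr2 and -0.285 to 0.31 for Atp2a2.

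Averaged over the mice, no member was called between the hemispheres, while single mice differed in either direction. Between injected and contralateral blocks over all treatments, no gene was called (0.0%; 450 at an unadjusted p under 0.05, limma), and the members ran from -0.09 (Jph4) to 0.07 (Atp2a2). With the mouse as a block, the difference of Jph4 was -0.10 (95% interval -0.23 to 0.03, limma adjusted p = 0.874) and that of Ryr2 0.06 (-0.08 to 0.21, limma adjusted p = 0.951). Ryr2 was higher in the injected block in 8 of 13 mice and Jph4 lower in 9 of 13. The widest gaps within a mouse were 0.88 for Itpr1 in Q, 0.87 for Ryr3 in O and -0.77 for Atp2a2 in AD (log2 differences, injected minus contralateral), and Atp2a2 went the other way in Q (0.70) and J (0.64). Ryr3 was lower in the injected block in 4 of 4 vehicle-treated mice, by 0.20 ± 0.07 (SD, log2 mean difference -0.20), and in 3 of 5 R55-treated and 2 of 4 R33-treated mice. Ryr2 was higher in the injected block in 4 of 4 R33-treated mice, with a mean difference of 0.10 ± 0.03 (SD). Neither was called with 1 treatment fitted alone and the mouse as a block. The limma adjusted p was 0.998 for Ryr3 after vehicle and 0.953 for Ryr2 after R33. How many of all tested genes went one way in every mouse of a group was not counted.

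**Figure D5:**
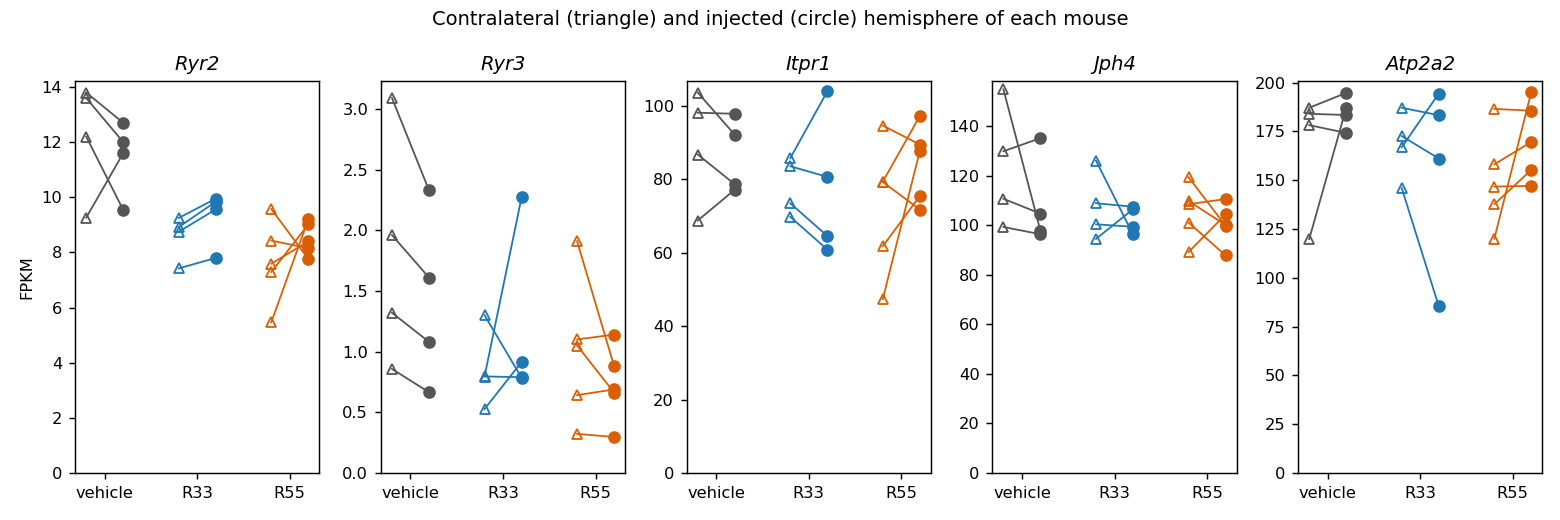
FPKM (y axes, from 0) of 5 members in the contralateral (open triangle) and injected (filled circle) block of the 13 mice with both, joined by a line per mouse and grouped by treatment. Ryr3 is lower in the injected than in the contralateral block in 4 of 4 vehicle-treated mice, and the lines of the other groups go both ways except for Ryr2 after R33. No member is called between the hemispheres.

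The difference between R55 and vehicle was not shown to depend on the hemisphere. For Ryr2 it was -0.38 (SE 0.0894) among injected and -0.61 (SE 0.139) among contralateral blocks, with an interaction of 0.23 (95% interval -0.12 to 0.57, limma adjusted p = 0.999). With the mouse as a block the interaction was 0.23 (limma adjusted p = 0.806). Among the members the interaction for R55 ran from -0.20 for Jph1 to 0.28 for Itpr1, and for R33 from -0.32 for Atp2a2 to 0.45 for Ryr3. No gene was called in either interaction (0.0%), with 239 and 49 at an unadjusted p under 0.05. The contralateral block of mouse Q held the lowest Ryr2 (5.47 FPKM) and the lowest Itpr1 (47.4 FPKM) of all libraries, and its long-gene level of -0.33 was the second lowest. The lowest long-gene level, -0.42, was that of the injected block of mouse AD, which held the lowest Atp2a2.

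The genes most like Ryr2 over the 14 mice were also long. By Pearson correlation of the mouse means of log2(FPKM + 1), the 5 nearest of the tested genes were Trio (r = 0.897, 11497 bp), Trrap (0.894, 12479 bp), Birc6 (0.887, 15768 bp), Mycbp2 (0.886, 15233 bp) and Numa1 (0.885, 7153 bp). After removal of the length trend these fell to 0.635 to 0.726, and Zkscan2 (0.850) and Mri1 (0.829) came first. Of the other members, Ryr3 (0.586) and Jph1 (0.566) were nearest, and Jph3 was at -0.098. These values are descriptions over mice that share treatment groups.

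The wider calcium pathway was taken from 7 lists with 73 genes, of which 63 were tested. None of the 63 was called in the R55, R33, R55 against R33 or injected against contralateral comparison. At an unadjusted p under 0.05 there were 3 for R55, 4 for R33 and 1 in each of the other comparisons, beside 1096 (R55) and 762 (R33) of all 12976 tested genes. The R55 differences were below 0 for 26 and above 0 for 37 of the 63 genes, and 39.8% of all tested genes were below 0. Genes that carry calcium out across the plasma membrane stood lowest as a list. Of its 7 genes, 6 were lower after R55 and 5 after R33, with median differences of -0.19 and -0.24. Slc8a1, a sodium and calcium exchanger with a length of 18713 bp, was at 16.1 ± 1.95 FPKM after vehicle (n = 4), 12.5 ± 3.26 after R33 (n = 5) and 10.7 ± 1.44 after R55 (n = 5). Every R55-treated mouse lay below every vehicle-treated mouse for Slc8a1, as for 1.43% of all tested genes, with a difference of -0.55 (SE 0.15, limma adjusted p = 0.309) that became -0.26 once the length trend was removed. Atp2b3, a calcium pump of the plasma membrane, differed by -0.28 (limma adjusted p = 0.572), and Atp2b2, the most abundant of the list, by 0.08 (limma adjusted p = 0.885). With the length trend removed, Atp2b3 (6931 bp) was at -0.21 and Atp2b2 (9553 bp) at 0.21. The medians of this list, the lowest of 7, were not computed after that step.

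Partners of the release channels were split evenly. Of 10 tested genes of channel partners and junction proteins (17 listed), 5 were lower and 5 higher after R55, with a median of 0.00. Fkbp1a, which binds ryanodine receptors, was the most abundant, at 286 ± 39.7 FPKM after vehicle and 269 ± 19.4 after R55 (difference -0.08, limma adjusted p = 0.692). Srl (sarcalumenin), a lumenal calcium-binding protein, was at 2.10 ± 0.411 and 1.69 ± 0.209 FPKM (difference -0.20, limma adjusted p = 0.557), and Homer3, a postsynaptic scaffold that binds IP3 receptors, differed by -0.34 (limma adjusted p = 0.646). Jph2 differed by 0.05 without the filter.

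No gene of IP3 production or IP3 receptor regulation was called. Of 17 tested (19 listed), 12 were higher and 5 lower in their means after R55, with a median of 0.03, beside 39.8% lower and a median of 0.03 over all tested genes. Cabp1, a calcium-binding protein that inhibits IP3 receptors, was at 76.4 ± 20.6 FPKM after vehicle, 96.4 ± 25.8 after R33 and 102 ± 27.8 after R55 (R55 difference 0.42, SE 0.204, limma adjusted p = 0.589). Plcg1, a phospholipase that makes IP3, differed by -0.13 (limma adjusted p = 0.598), and Itpka, a kinase that removes IP3 and the most abundant of the list, by -0.07 (limma adjusted p = 0.841).

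No gene that refills, buffers or drains the store was called. Of 8 tested genes of store refilling (9 listed), 5 were lower and 3 higher after R55, with a median of -0.06. Orai2, a plasma membrane channel that opens when the store is empty, was at 18.3 ± 6.32 FPKM after vehicle and 14.3 ± 1.62 after R55 (difference -0.30, limma adjusted p = 0.607). Atp2a3, a sister pump of Atp2a2, differed by -0.18 (limma adjusted p = 0.645), and Saraf, which shuts off store refilling, by 0.08 (limma adjusted p = 0.667). Of 9 lumenal calcium-binding genes 7 were higher, with a median of 0.07. Calr (calreticulin) was at 193 ± 28.9 FPKM after vehicle and 204 ± 18 after R55 (limma adjusted p = 0.722), Rcn2 differed by 0.16 (limma adjusted p = 0.589) and Sdf4 by 0.07 (limma adjusted p = 0.589). Sdf4 stood at 49.2 ± 1.18 FPKM after vehicle and 51.7 ± 0.534 after R55. The 3 genes of endoplasmic reticulum leak were higher in their means, Tmbim6 by 0.09 (limma adjusted p = 0.66), Sec61a1 by 0.11 (limma adjusted p = 0.589) and Tmco1 by 0.16 (limma adjusted p = 0.599). Of 9 genes of mitochondrial calcium uptake 6 were higher, with a median of 0.05. The outer membrane channel gene Vdac1 differed by 0.08 (limma adjusted p = 0.657), the uniporter gene Mcu by -0.08 (limma adjusted p = 0.644) and its regulator Micu2 by 0.11 (limma adjusted p = 0.657).

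In bulk tissue, fewer cells of a type and less RNA per cell cannot be told apart. Astrocyte markers summed to 253 to 947.5 FPKM over the libraries, and Itpr2 rose with them over the 14 mice (r = 0.553, permutation p = 0.039, adjusted over 30 relations 0.14; rho = 0.653, permutation p = 0.014, adjusted 0.082), with r = 0.475 without the 2 farthest mice (AE and L) and 0.780 within the 1-letter mice. The relation did not pass the adjustment. Markers of muscle, where Ryr1 and Jph1 are also expressed, were near 0 apart from 1 gene, and summed to 6.0 to 18.4 FPKM.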

How the data were processed

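RNA was measured in 27 libraries of 14 mice. Stranded mRNA libraries were read from both ends, and the authors aligned the reads to GRCm39 with HISAT2, tested with DESeq2 and deposited FPKM per gene. The counting tool is not given in the sources used here. Deposited values came out as whole fragments (100.0%, tolerance 0.01), which gave gene lengths and depth. The table's 5 other libraries were not used, and 32 leftover header lines were dropped.

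Genes averaging 1 FPKM or more (12976 of 26264) were tested with limma 3.58.1 in R 4.3.3 on log2(FPKM + 1), with treatment and hemisphere as additive factors, an intensity trend and Benjamini-Hochberg adjustment, calls at 0.05, two-sided. Such differences understate the change of low genes. Mice are separate animals, and libraries of 1 mouse count separately unless stated. Hemispheres pair by mouse label: deviations correlated by 0.394 on average (13 pairs, -0.0787 to 0.648). The length trend was a lowess fit (span 0.3) per library. The fit was tested on simulated data. Relations used two-sided permutation tests over mouse means of log2(FPKM + 1), each member against 3 scores (hippocampal markers, astrocyte markers, long genes). Mice were permuted across treatments.

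Named genes were all members, Jph2, and from each list the called genes, the most abundant and up to 2 with the smallest p for R55, plus the 5 most like Ryr2. The members and lists were chosen with earlier results of these data known. Alternatives were another scaling, filter, pseudocount, voom, covariates, block, hemisphere and mice left out. Python 3.11.15 with numpy 2.4.6, pandas 2.3.3 and matplotlib 3.10.9 did the rest.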

Additional observations from a re-analysis of the deposited data

Results flagged for a closer look

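Among 60 groups of 4 or 5 libraries (10 members, 3 treatments and both hemispheres), 5 held 1 library whose gap to its nearest neighbour was large for the group's range by Dixon's test. Chance alone gives about 1 in 20. For Ryr1, the contralateral block of vehicle-treated mouse L was at 1.18 FPKM beside 0.584 to 0.679 in the others, that of R33-treated mouse N at 0.692 beside 0.538 to 0.558, and that of R55-treated mouse AA at 0.947 beside 0.555 to 0.663. For Itpr2, the contralateral block of R55-treated mouse R was at 3.88 FPKM beside 1.95 to 2.15. For Atp2a2, the contralateral block of vehicle-treated mouse J was at 120 FPKM beside 178 to 187. All 5 were contralateral blocks. No member moved one way in every mouse of a treatment and the other way in every mouse of another.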

How the results depend on the processing

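For R55 against vehicle, 1 gene (Ryr2) was called. The counts of genes and of members called were 0 with median-of-ratios size factors, without the filter (pseudocount 1 or 0.1), with the correlation of a mouse's libraries modelled, with the letters of the mouse label or the hippocampal markers as a covariate, with the length trend removed (with or without that correlation), in either hemisphere alone (with or without the trend) and with 1 value per mouse. They were 12 genes with only the compared treatments and 5 within the 1-letter mice, Ryr2 included both times. Both fits reuse libraries behind the choice of the members. Leaving out each mouse gave 0 to 50 genes (50 without AD, 4 without AH, 3 without J) and 0 to 1 member. Fits without the filter called 1 gene for R33. R55 against R33 gave 0 to 2 genes with a mouse left out (2 without AD). Injected against contralateral gave 1 gene with that correlation modelled and 5 with the length trend removed as well. None of these was a member. With the mouse as a replicate block, injected against contralateral and both interactions gave 0 genes, and the block changed no call. The likeness of Trio to Ryr2 moved from 0.897 to 0.726 with the length trend removed.

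In the comparisons with vehicle, and for Ryr2, Ryr3 and Jph1 between the compounds, signs turned as follows, in log2 units. Itpr2 went to 0.079 (R55) and 0.040 (R33) with the length trend removed, 0.079 and 0.049 with the correlation modelled too, 0.011 and 0.057 in the injected and 0.147 and 0.014 in the contralateral hemisphere with the trend removed, and for R33 to 0.027 within the 1-letter mice and between -0.183 and 0.011 with a mouse left out (0.011 without AD). Itpr1 (R55, 0.028), Jph3 (R55, -0.021) and Ryr3 (R33, 0.065) turned in the injected hemisphere with the trend removed. Jph3 turned for R55 in the injected hemisphere (-0.011) and with a mouse left out (-0.031 to 0.093 for R55, -0.004 to 0.088 for R33). Atp2a2 turned for R33 in the contralateral hemisphere (0.024, and 0.038 with the trend removed) and within the 1-letter mice (0.047). Within the 2-letter mice, without a test, R55 gave Ryr3 0.167, Jph3 -0.104 and Jph4 0.054, R33 gave Ryr3 0.205, Jph1 0.006 and Jph4 0.176, and R55 against R33 gave Ryr2 0.046. Ryr3 turned for R55 against R33 in the contralateral hemisphere (0.078, and 0.222 with the trend removed), and Itpr3 for R55 with no filter and a pseudocount of 0.1 (-0.015). Other members with values near 0 also turned. Between the compounds, Atp2a2 (0.011) went to -0.175 and Itpr1 (0.008) to -0.141 in the contralateral hemisphere, Atp2a2 to -0.125 without AD and Jph3 to -0.169 within the 2-letter mice, and between the hemispheres Jph1 (0.063) went to -0.142 and Atp2a2 (0.070) to -0.062 within the 2-letter mice. The cause was not tested. The hippocampal covariate, the settings that combine 2 choices and the fits of 1 treatment alone were chosen after seeing the data. Ryr2 stayed below vehicle under every alternative run for either compound. Depth limits Ryr1, Itpr3 and Jph2 most, and also Ryr3, with 129 to 806 fragments per library.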
